A study of Homo sapiens with 24 samples.

Results

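The 10 genes described here, of 19775 genes with a probe set of their own, are OTX2, HESX1, ZIC1, ZNF521, PAX6, SOX1, LHX2, SIX3, SOX3 and NES, which mark or build the anterior neural plate and early neuroectoderm. Every probe set annotated to exactly 1 of them was taken, 22 of the 54675 probe sets on the array. OTX2 and HESX1 were also selected on their inhibitor minus DMSO values in these data, and ZIC1 and ZNF521 on their feeder-supported minus feeder-free values with DMSO. Those values are therefore given as a description, without a test. One further probe set names ZIC1 together with LOC440982 and was left out. It read 2.99 to 3.66 on all arrays.

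When the embryo forms its nervous system, ectoderm that is shielded from BMP, WNT and Nodal signals takes an anterior neural fate. OTX2 is active from the pluripotent epiblast onward and is needed for forebrain and midbrain, as mouse mutants show. HESX1, SIX3 and LHX2 act in the forebrain and eye field, SOX1, SOX3 and PAX6 mark neural plate and progenitors, and NES encodes the intermediate filament nestin of neural progenitors. Human embryonic stem cells are pluripotent, express OTX2, and can make neuroectoderm when these signals are withheld.

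RNA was measured on 24 Affymetrix U133 Plus 2.0 arrays from 3 established lines of human embryonic stem cells (H1, H9, HSF1). In the inhibitor experiment each line had 1 array in each of 4 groups: feeder-supported cells with AZD3965, feeder-supported cells with DMSO, feeder-free cells with AZD3965, and feeder-free cells with DMSO. AZD3965 blocks the lactate transporter MCT1. Cells had 250 nM of it, or DMSO as control, over 5 days. Feeder-supported cells grow on mouse embryonic fibroblasts (MEFs). In the medium experiment, feeder-free H9 or HSF1 cells received medium conditioned by MEFs or unconditioned medium, with 3 biological replicates a group. How long conditioned medium was on the cells is uncertain, as the sample labels say 5 days but the design text says 24 hours. The labels do not say whether feeder cells were removed before RNA was taken, so mouse RNA and human RNA cannot be told apart on the feeder-supported arrays. All values are log2 RMA values, the deposited unit, and differences are on the log2 scale.

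The array medians ran from 6.09 to 6.35, and below them background limits a value, so differences there give no exact fold. The mean of 6 pluripotency genes was 12.1 to 12.7 on feeder-supported arrays and 12.8 to 12.9 on feeder-free arrays of the inhibitor experiment, and 12.5 to 12.9 in the medium experiment. The interquartile range was 2.45 to 2.85 on all feeder-supported arrays and 3.06 to 3.30 on all feeder-free arrays of both experiments. Both feeder-supported HSF1 arrays were lowest, at 2.45 against 2.66 to 3.30 on the others. The range thus moved with culture, and its part in the culture differences was not tested apart from the fits after quantile normalization. For ACTB, whose control probe sets read the 3-prime and 5-prime ends and move apart with poorer RNA, the 3-prime signal exceeded the 5-prime signal by 1.42 to 1.84 in H9 in conditioned medium. In unconditioned medium it did so by 1.07, 3.26 and 2.89 in replicates 1, 2 and 3. In bulk RNA, fewer cells of a type and less RNA per cell cannot be told apart.

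Of the 22 probe sets, 17 in the inhibitor experiment and 18 in the medium experiment were above 5 (log2) on 3 or more of its 12 arrays and were tested. SIX3 probe set 242054_s_at passed in the medium experiment only. The remaining 4, which are 236896_at of ZIC1, 235795_at of PAX6, 206140_at of LHX2 and 244288_s_at of SIX3, stayed below 5 on all 24 arrays and carry no usable level. SIX3 242054_s_at passed the filter through the 3 arrays of HSF1 cells in conditioned medium alone. SIX3 206634_at passed through feeder-supported arrays alone in the inhibitor experiment and through conditioned-medium arrays alone in the medium experiment. Both had to differ in those directions, so their p is also given from a fit of all probe sets without the filter. Tests were made with limma over all probe sets, with Benjamini-Hochberg adjustment and a threshold of 0.05.

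OTX2 and HESX1 were lower with the inhibitor, and the differences were larger without feeders in all 3 lines. OTX2, a homeobox transcription factor of the epiblast and anterior neural plate, lies on chromosome 14 (GRCh38.p14, chr14:56799905-56810479). HESX1, a homeobox repressor of forebrain and pituitary development, lies on chromosome 3 (chr3:57197838-57227615). Because they moved together, a RefSeq promoter window of each, 250 bases before to 50 after a transcript start, is shown 5′ to 3′. Both are on the minus strand, at chr14:56810430-56810729 for OTX2 and chr3:57199929-57200228 for HESX1. Capitals mark CCAAT read on either strand, seen here as ATTGG, in OTX2 and TAATTA, its own reverse complement, in HESX1.
OTX2: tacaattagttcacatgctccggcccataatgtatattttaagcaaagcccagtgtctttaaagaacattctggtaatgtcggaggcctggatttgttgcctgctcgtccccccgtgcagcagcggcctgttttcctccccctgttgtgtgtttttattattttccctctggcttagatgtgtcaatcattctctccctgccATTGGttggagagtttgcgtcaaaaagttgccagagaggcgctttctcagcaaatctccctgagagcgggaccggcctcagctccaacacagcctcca
HESX1: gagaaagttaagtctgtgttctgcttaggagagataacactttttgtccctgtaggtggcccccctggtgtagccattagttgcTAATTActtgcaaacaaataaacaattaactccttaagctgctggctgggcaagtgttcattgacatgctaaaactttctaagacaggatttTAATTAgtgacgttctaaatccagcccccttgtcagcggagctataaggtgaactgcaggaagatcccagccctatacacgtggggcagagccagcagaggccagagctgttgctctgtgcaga
The motifs searched on both strands were TAATCC, the letters that the OTX2 homeodomain prefers, TAATTA, a common homeodomain motif, and CCAAT, a general promoter element. Each was counted on its own, and matches of different motifs may share bases. RefSeq held 18 windows for 8 of the 10 genes, 9 of them for PAX6, and none for ZNF521 or SIX3. TAATCC was in 0 of the 18 windows against 6.36% of all 35116 windows, and CCAAT in 8 against 34.6%. TAATTA was in 1 against 4.84%, the HESX1 window shown, where it stands at 2 places. OTX2 and HESX1 have 2 windows each, and the window shown is the one with the marked motif. The other HESX1 window holds CCAAT at 1 place and no TAATTA, and the other OTX2 window holds none of these motifs. A match describes letters in these windows and says nothing about binding.

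In feeder-free cells the OTX2 probe set 242128_at read 8.42, 8.43 and 8.26 with the inhibitor in H1, H9 and HSF1, against 10.14, 10.81 and 10.60 with DMSO. All 3 inhibitor arrays lay below all 3 DMSO arrays. On feeders it read 8.98, 10.21 and 8.16 with the inhibitor, against 9.55, 10.45 and 8.87 with DMSO. There each line was lower with the inhibitor, but the groups overlapped because the lines differed from each other by more than the treatments did. The difference was -2.15 (SE 0.34) without feeders and -0.51 (SE 0.34) with them. The other OTX2 probe set, 231731_at, differed by -2.25 (SE 0.35) and -0.51 (SE 0.35). In the feeder-supported H9 pair it was 0.09 higher with the inhibitor, so 5 of 6 pairs were lower, against 6 of 6 for 242128_at.

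HESX1 read 7.42, 6.56 and 6.48 in feeder-free H1, H9 and HSF1 cells with the inhibitor, against 8.59, 8.35 and 8.13 with DMSO. On feeders it read 6.94, 6.55 and 6.27 with the inhibitor, against 7.55, 7.33 and 7.21 with DMSO. The groups did not overlap in either culture system, and all 6 pairs were lower. The differences were -1.53 (SE 0.19) without feeders and -0.78 (SE 0.19) with them. All of these values served to pick the genes and are given without a test.

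**Figure D1:**
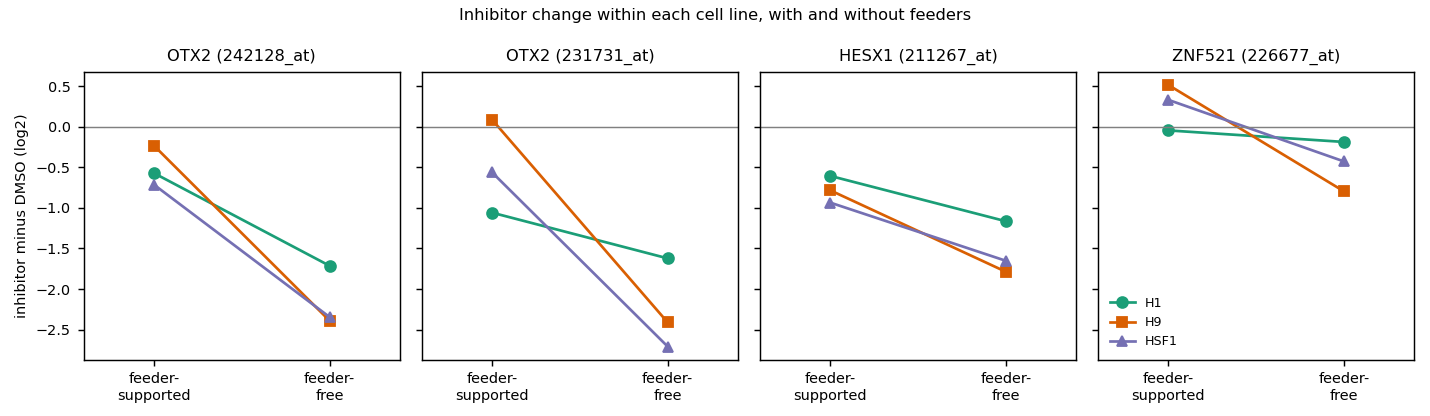
Difference between inhibitor and DMSO (log2, y axis) in each line, on feeders and without feeders (x axis), for both OTX2 probe sets, HESX1 and ZNF521. Lines join the same cell line. OTX2 and HESX1 lie lower without feeders in all 3 lines, and the OTX2 probe set 231731_at in feeder-supported H9 cells is the only point of these above 0.

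The inhibitor response on feeders minus the response without them was 1.64 (SE 0.48) and 1.74 (SE 0.50) for the OTX2 probe sets and 0.76 (SE 0.26) for HESX1. It is made of the values that picked these genes and is likewise given without a test. Of the 14 tested probe sets of the other 8 genes 0 passed for this difference in limma, against 0.00475% of all probe sets, and 878 of all probe sets had an unadjusted p under 0.05.

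The other 8 genes showed no called response to the inhibitor. Of their 14 tested probe sets, 0 passed for the mean of both culture systems, 0 on feeders and 0 without feeders, against 0.280%, 0.00238% and 0.544% of all probe sets. At an unadjusted p under 0.05, 3097, 687 and 3029 of all probe sets passed. The largest of the 14 mean differences was -0.28 (SE 0.17, adjusted p = 0.86) for ZNF521 probe set 226676_at. Without feeders that probe set read 6.81, 7.35 and 7.20 with the inhibitor, against 7.16, 8.06 and 7.61 with DMSO, a difference of -0.49 (adjusted p = 0.75). It was lower in all 3 lines but the groups overlapped, and it passed with the pair of line and culture system as a block (adjusted p = 0.027). The DMSO arrays also entered the values that picked ZIC1 and ZNF521, so their tests against DMSO are not independent of that choice. NES 218678_at differed by 0.09 (95% interval -0.44 to 0.63) over both culture systems and PAX6 205646_s_at by -0.09 (-0.47 to 0.29). With the pair block the SE was 0.06 against 0.25 for NES (adjusted p = 0.39) and 0.12 against 0.17 for PAX6 (adjusted p = 0.69).

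In feeder-free cells, where OTX2 and HESX1 differed most from DMSO, the mean of 8 neuron markers was 8.59 to 8.80 with the inhibitor and 8.30 to 8.47 with DMSO. The mean of 12 fibroblast markers was 6.95 to 7.86 with the inhibitor and 6.68 to 7.62 with DMSO. The mean of 6 pluripotency markers was 12.8 to 12.9 in both groups. None of these marker genes passed for the mean inhibitor effect, and their part in the OTX2 and HESX1 values was not tested.

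**Figure D2:**
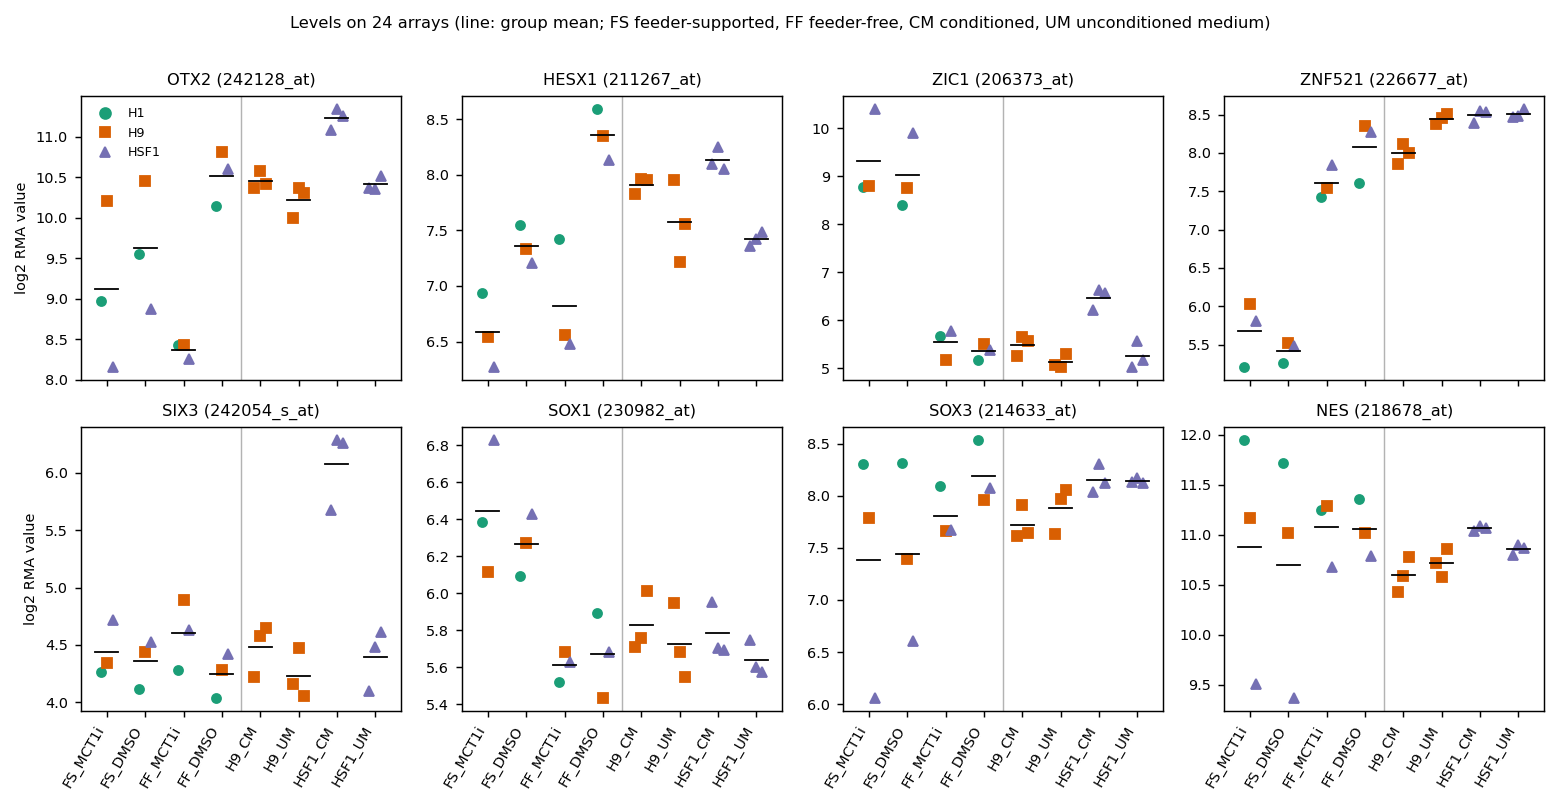
Log2 RMA values (y axis) on all 24 arrays for 8 probe sets, by group (x axis; FS feeder-supported, FF feeder-free, MCT1i AZD3965, CM conditioned and UM unconditioned medium). Points are arrays coloured by line and bars are group means. ZIC1 is high on the feeder-supported arrays (8.39 to 10.40) and ZNF521 is low there (5.21 to 6.03), while SIX3 stands out in HSF1 cells in conditioned medium (5.68 to 6.29).

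ZIC1 was far higher and ZNF521 far lower on feeder-supported arrays, with or without the inhibitor. ZIC1 encodes a zinc-finger transcription factor of the neural plate and neural crest border and lies at chr3:147409365-147416719. ZNF521 encodes a zinc-finger protein that promotes neural fate in mouse embryonic stem cells and lies at chr18:25061924-25352166. The RefSeq promoter window of ZIC1, which had the largest culture difference of the 10 genes, is on the plus strand at chr3:147409115-147409414 and holds CCAAT at 2 places, in capitals.
ZIC1: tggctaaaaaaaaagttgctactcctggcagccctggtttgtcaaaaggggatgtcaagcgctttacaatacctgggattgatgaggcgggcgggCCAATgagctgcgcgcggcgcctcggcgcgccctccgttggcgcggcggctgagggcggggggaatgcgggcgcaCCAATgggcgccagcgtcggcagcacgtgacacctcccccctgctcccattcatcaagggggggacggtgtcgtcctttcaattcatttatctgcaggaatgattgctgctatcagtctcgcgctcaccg
With the inhibitor, ZIC1 probe set 206373_at read 8.78, 8.80 and 10.40 on feeders in H1, H9 and HSF1, against 5.67, 5.17 and 5.78 without feeders. With DMSO it read 8.39, 8.76 and 9.90 on feeders, against 5.16, 5.51 and 5.38 without. No feeder-supported array came near a feeder-free one, and every feeder-free value lay below the array medians. The difference was 3.79 with the inhibitor (SE 0.32, adjusted p = 3.9e-05) and 3.67 with DMSO (SE 0.32), the second without a test since it picked the gene. A second probe set, 234716_at, differed less, by 0.77 with the inhibitor (SE 0.23, adjusted p = 0.021) and 0.44 with DMSO. Its call ended without any 1 line (adjusted p = 0.055 to 0.077), and without both feeder-supported HSF1 arrays the difference was 0.43 (adjusted p = 0.046).

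ZNF521 probe set 226677_at read 5.21, 6.03 and 5.81 on feeders with the inhibitor, against 7.42, 7.55 and 7.84 without feeders. With DMSO it read 5.25, 5.52 and 5.48 on feeders, against 7.61, 8.35 and 8.27 without. The groups were far apart under both treatments, and the feeder-supported values lay below the array medians. The difference was -1.92 with the inhibitor (SE 0.18, adjusted p = 0.0001) and -2.66 with DMSO (SE 0.18, description only). Probe set 226676_at fell by 0.80 with the inhibitor (adjusted p = 0.020), a call that ended without H1 (-0.78, adjusted p = 0.13) or H9 (-0.63, adjusted p = 0.10), and differed by -1.22 with DMSO. The arrays with the inhibitor were not used to pick ZIC1 and ZNF521, but they come from the same 3 lines.

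The culture contrast is broad. With the inhibitor 7 of 17 member probe sets passed (41.2%; 5 higher, 2 lower), against 47.2% of all probe sets (21.1% higher, 26.1% lower). With DMSO, ZIC1 and ZNF521 were set aside, as this contrast picked them. Of the other 13 probe sets 6 passed (46.2%, 4 higher and 2 lower), against 39.5% (16.4% higher, 23.2% lower). The 2 lower calls, OTX2 231731_at and HESX1, are not independent of the choice of genes, as their DMSO arrays entered it. Without SIX3 206634_at, which passed the filter through feeder-supported arrays alone, 5 of 12 passed with DMSO and 7 of 16 with the inhibitor. These shares are near the background and say nothing particular about the 10 genes. The median difference of all probe sets with DMSO was -0.07 as deposited, 0.03 after quantile normalization and -0.19 with arrays shifted to a common median.

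OTX2 and HESX1 were lower on feeders than without them when DMSO was given. The same DMSO arrays entered the inhibitor minus DMSO values that picked both genes, so these tests are not independent of that choice. OTX2 probe set 231731_at read 7.47, 8.53 and 6.90 on feeders, against 8.50, 9.46 and 9.08 without, a fall of 1.38 (SE 0.35, adjusted p = 0.015). Each line was lower on feeders, and the groups overlapped because feeder-supported H9 read just above feeder-free H1. The call ended without H1 (-1.56, adjusted p = 0.061) or HSF1 (-0.98, adjusted p = 0.073), and after quantile normalization (adjusted p = 0.074). Probe set 242128_at differed by -0.90 (SE 0.34, adjusted p = 0.053), and by -0.43 after quantile normalization. HESX1 read 7.55, 7.33 and 7.21 on feeders, against 8.59, 8.35 and 8.13 without, with no overlap, and fell by 1.00 (SE 0.19, adjusted p = 0.0051). Its call ended without H1 (-0.97, adjusted p = 0.058) or H9 (-0.99, adjusted p = 0.061).

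With the inhibitor neither gene passed between the culture systems as deposited. The inhibitor arrays too entered the values that picked both genes, so these tests are likewise not independent of that choice. OTX2 242128_at differed by 0.75 (95% interval 0.004 to 1.49, adjusted p = 0.084) and 231731_at by 0.35 (-0.42 to 1.12), while HESX1 differed by -0.24 (-0.64 to 0.17). By line, the difference of 242128_at was 0.55 in H1, 1.79 in H9 and -0.10 in HSF1, and that of 231731_at was -0.47, 1.57 and -0.04. Both were highest in H9. Probe set 242128_at passed without both feeder-supported HSF1 arrays (1.22, adjusted p = 0.0036) and after quantile normalization (1.17, adjusted p = 0.012).

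The neural plate genes SOX1, PAX6 and SIX3 were higher on feeders, at low levels. The ACTB 3-prime minus 5-prime difference also moved with culture, at -0.31 to 1.19 on feeders and 0.47 to 1.17 without, with both feeder-supported HSF1 arrays below 0. With it as a covariate none of the 6 DMSO calls passed, SOX1 230982_at standing at 0.37 (adjusted p = 0.44), PAX6 at 0.58 (0.39) and SIX3 at 0.76 (0.17). Without the covariate these differences were 0.59, 0.81 and 0.71. Calls over all probe sets in this contrast ran from 778 to 23411 across the alternative fits, against 16636. The part of RNA quality in the member differences was not tested beyond this covariate. HESX1 alone kept its DMSO call after quantile normalization or without the line as a block. SOX1 (chr13:112067149-112071706), a SOXB1 factor that marks committed neuroectoderm, read 6.39, 6.12 and 6.83 on feeders with the inhibitor at 230982_at, against 5.52, 5.68 and 5.63 without feeders. The groups did not overlap, and the probe set rose by 0.83 (SE 0.18, adjusted p = 0.0075). It rose by 0.59 with DMSO (adjusted p = 0.028). The inhibitor call ended without H1 (adjusted p = 0.071) and with the ACTB covariate (0.65, adjusted p = 0.11), and the DMSO call without any 1 line (adjusted p = 0.060 to 0.15). Probe set 208533_at rose by 0.60 with the inhibitor (adjusted p = 0.025), again not without any 1 line (adjusted p = 0.075 to 0.096), while 237472_at differed by -0.23 and -0.13. The last 2 sets lay below the array median on all 24 arrays.

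PAX6 (chr11:31789026-31817961), a paired-box factor of eye and forebrain progenitors, read 6.36, 6.79 and 7.56 on feeders with DMSO, against 6.17, 5.80 and 6.31 without. It rose by 0.81 (SE 0.25, adjusted p = 0.027), with HSF1 highest and the groups just apart, and lost the call without any 1 line (adjusted p = 0.061 to 0.10) or without both feeder-supported HSF1 arrays (0.53, adjusted p = 0.074). With the inhibitor it differed by 0.64 (adjusted p = 0.051). SIX3 (chr2:44941702-44946071), a homeobox factor of the forebrain and eye field, rose by 0.71 at 206634_at with DMSO (SE 0.19, adjusted p = 0.017, and 0.015 without the filter), with 4.94, 5.22 and 5.47 on feeders, against 4.20, 4.83 and 4.47 without. The groups did not overlap, but all of these values lay below the array medians, and the call ended without H1 (adjusted p = 0.11). With the inhibitor the difference was 0.44 (adjusted p = 0.068). LHX2 (chr9:124011768-124033301), a LIM homeobox factor of the eye field and cortex, differed by 0.24 with the inhibitor and 0.39 with DMSO at 211219_s_at (adjusted p = 0.42 and 0.20).

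SOX3 and NES gave mixed readings across their probe sets. SOX3 (chrX:140502985-140505069) is a SOXB1 factor of the early neural plate. Its probe set 214633_at differed by -0.43 with the inhibitor and -0.75 with DMSO (adjusted p = 0.30 and 0.091), and in the feeder-supported HSF1 arrays it read 6.06 with the inhibitor and 6.61 with DMSO, the lowest of all 24. The other set, 1553802_a_at, rose by 0.54 with the inhibitor (adjusted p = 0.022) and 0.54 with DMSO (adjusted p = 0.026), at 5.84 to 6.41 on feeders and 5.45 to 5.88 without. The inhibitor call ended without H1 or HSF1 (adjusted p = 0.14 and 0.079) and the DMSO call without H1 or H9 (adjusted p = 0.12 and 0.099). As the mean of both probe sets, SOX3 with DMSO stood at -0.10.

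NES (chr1:156668763-156677407) read 9.37 to 11.95 at 218678_at over the 24 arrays. It differed by -0.19 with the inhibitor and -0.35 with DMSO between culture systems (adjusted p = 0.65 and 0.40), and the feeder-supported HSF1 arrays were again lowest, at 9.51 with the inhibitor and 9.37 with DMSO. The other set, 229346_at, read 5.61 and 5.70 in feeder-free H9 cells of the inhibitor experiment, with inhibitor and with DMSO, and 7.12 to 8.10 in feeder-free H9 cells of the medium experiment. That gap of the same line between experiments was not tested.

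**Figure D3:**
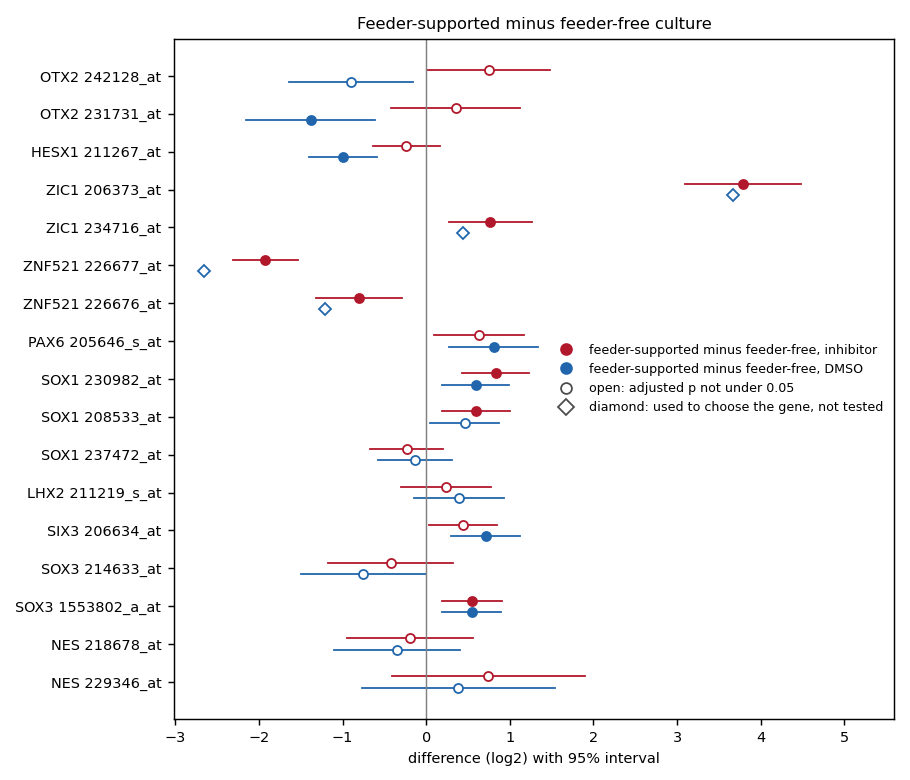
Difference between feeder-supported and feeder-free arrays (log2, x axis) with its 95% interval for each tested probe set, with the inhibitor (red) and with DMSO (blue). Filled points passed an adjusted p of 0.05, open ones did not, and diamonds mark values that picked the gene. ZIC1 206373_at lies farthest to the right and ZNF521 226677_at farthest to the left, and OTX2 lies left of 0 with DMSO and right of it with the inhibitor.

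On feeder-supported arrays the mean of 12 fibroblast markers was 7.82 to 8.61 with the inhibitor and 7.74 to 8.29 with DMSO, against 6.95 to 7.86 and 6.68 to 7.62 without feeders. The mean of 6 pluripotency markers was 12.1 to 12.7 on feeders and 12.8 to 12.9 without. These values moved with the same groups as ZIC1, ZNF521 and the neural plate genes, and their part in those differences was not tested.

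OTX2, HESX1, ZIC1 and SIX3 were higher in HSF1 cells in medium conditioned by MEFs than in unconditioned medium. OTX2 242128_at read 11.08, 11.34 and 11.25 in conditioned medium, against 10.36, 10.35 and 10.52 in unconditioned medium, a rise of 0.81 (SE 0.10, adjusted p = 9.4e-05). HESX1 read 8.10, 8.24 and 8.05, against 7.36, 7.42 and 7.48, a rise of 0.71 (SE 0.14, adjusted p = 0.0038). In both genes the groups were clearly apart. ZIC1 206373_at read 6.21, 6.62 and 6.57 in conditioned medium, against 5.02, 5.56 and 5.16 in unconditioned medium, a rise of 1.22 (SE 0.16, adjusted p = 0.00015). All 3 conditioned values lay above their array medians, and all 3 unconditioned values lay below. The second ZIC1 probe set, 234716_at, differed by 0.12 (adjusted p = 0.50).

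SIX3 probe set 242054_s_at read 5.68, 6.29 and 6.26 in conditioned medium, against 4.10, 4.48 and 4.61 in unconditioned medium, a rise of 1.68 (SE 0.19, adjusted p = 4.4e-05, and 2.7e-05 without the filter). On the other 21 arrays, which span all other groups, this probe set did not exceed 4.89. Probe set 206634_at read 5.32, 5.51 and 5.83, against 4.57, 4.47 and 4.86, and rose by 0.92 (SE 0.15, adjusted p = 0.0011, and 0.00085 without the filter). Both sets had to rise to pass the filter, so their shared direction is no support of one for the other. Set 206634_at lay below the array median on all 24 arrays. OTX2 231731_at differed by 0.48 (SE 0.15, adjusted p = 0.052). In all, 5 of 18 probe sets passed (27.8%), all 5 higher, against 4.80% of all probe sets higher and 11.4% in either direction. Without both SIX3 sets, which passed the filter through conditioned medium alone, 3 of 16 passed. Those 3 are of OTX2, HESX1 and ZIC1, which were picked for other responses in these data. No probe set of PAX6, SOX1, LHX2, SOX3 or NES passed. Leaving out any 1 HSF1 array ended none of the calls of OTX2, HESX1 and ZIC1.

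In H9 cells 2 of 18 passed (11.1%; 1 higher, 1 lower), against 10.1% of all probe sets (2.64% higher, 7.49% lower). This share is near the background. Without both SIX3 sets, which passed the filter through conditioned-medium arrays alone, 1 of 16 passed. ZNF521 226677_at read 7.86, 8.12 and 8.002 in conditioned medium, against 8.38, 8.46 and 8.51 in unconditioned medium, and fell by 0.45 (SE 0.08, adjusted p = 0.0040) with no overlap. SIX3 206634_at read 4.97, 4.80 and 5.16, against 4.28, 4.55 and 4.51, and rose by 0.53 (SE 0.15, adjusted p = 0.037, and 0.040 without the filter). That SIX3 call ended without any of H9 unconditioned replicates 1, 2 and 3 or conditioned replicates 1 and 3 (adjusted p = 0.056 to 0.14). OTX2 242128_at averaged 10.45 ± 0.11 in conditioned and 10.22 ± 0.19 in unconditioned medium (SD, n = 3 each), and differed by 0.23 (adjusted p = 0.15), while 231731_at differed by 0.48 (adjusted p = 0.055). HESX1 differed by 0.34 (adjusted p = 0.12), with 7.83, 7.96 and 7.95 in conditioned medium, against 7.95, 7.22 and 7.56 in unconditioned medium, and the groups overlapped.

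**Figure D4:**
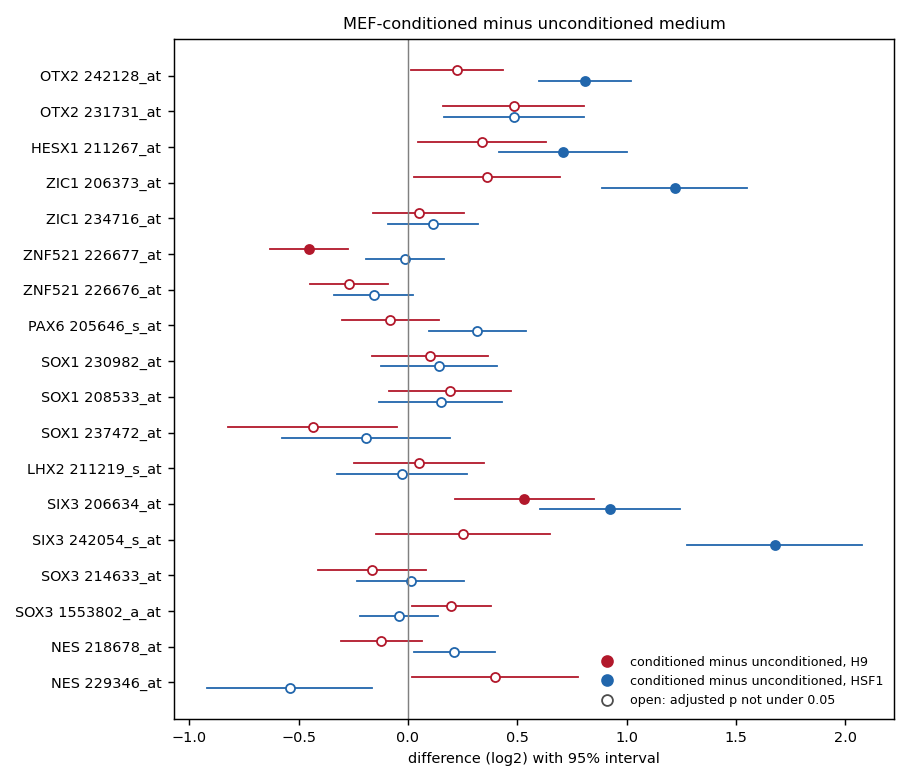
Difference between conditioned and unconditioned medium (log2, x axis) with its 95% interval for each tested probe set, in H9 (red) and HSF1 cells (blue). Filled points passed an adjusted p of 0.05. In HSF1 cells OTX2 242128_at, HESX1, ZIC1 206373_at and both SIX3 sets lie to the right of 0, with SIX3 242054_s_at farthest at 1.68.

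The medium response differed between the lines for 5 of 18 probe sets (27.8%), against 4.58% of all probe sets, and for 4 of 16 without both SIX3 sets. Of those 4, all but the NES set are of genes picked for other responses in these data. The response in H9 minus that in HSF1 was -1.43 for SIX3 242054_s_at (SE 0.26, adjusted p = 0.010, and 0.0092 without the filter), -0.86 for ZIC1 206373_at (adjusted p = 0.042), -0.58 for OTX2 242128_at (adjusted p = 0.031) and -0.44 for ZNF521 226677_at (adjusted p = 0.049). For NES 229346_at it was 0.94 (adjusted p = 0.047), with 8.10, 8.04 and 7.87 in H9 in conditioned medium, against 7.60, 8.09 and 7.12 in unconditioned medium, and in HSF1 with 6.66, 6.51 and 6.45, against 7.24, 7.07 and 6.95. The second probe sets of OTX2 and ZIC1 did not pass, at 0.00 for 231731_at (95% interval -0.45 to 0.45) and -0.07 for 234716_at (-0.36 to 0.22). The OTX2 and ZIC1 calls each ended in 8 of 12 fits that left out 1 array (adjusted p up to 0.095 and 0.12), and those of ZNF521 and NES in 10 of 12 (up to 0.14 and 0.13). HESX1 differed between the lines by -0.37 (adjusted p = 0.30).

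The order of group means shows where each gene sits. For OTX2 242128_at, HSF1 cells in conditioned medium were highest (11.22 ± 0.13, SD, n = 3), clear of the next group, while feeder-free cells with the inhibitor were lowest (8.37 ± 0.09), within the range of feeder-supported cells with the inhibitor (9.12 ± 1.03). For HESX1, feeder-free cells with DMSO were highest (8.36 ± 0.23) and both inhibitor groups lowest, at 6.82 ± 0.52 without feeders and 6.59 ± 0.34 with them, and these neighbours overlapped. For ZIC1 206373_at, feeder-supported cells with the inhibitor (9.32 ± 0.93) and with DMSO (9.02 ± 0.79) overlapped and were clear of HSF1 cells in conditioned medium (6.47 ± 0.23), which were clear of the other groups. For ZNF521 226677_at, feeder-supported cells with the inhibitor (5.68 ± 0.43) and with DMSO (5.42 ± 0.14) were lowest and clear of all feeder-free groups, which ran from 7.60 to 8.51. NES 218678_at averaged 10.60 to 11.07 in all 8 groups and neighbours in its order overlapped throughout.

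Likeness was measured as Pearson's r over the 24 arrays after the mean of each line within each experiment was taken off, among 16518 genes. The arrays share lines and experiments, and these genes were picked for differences on the same arrays, so r is a description and its sign between picked genes restates that choice. Closest to OTX2 were ZFP36L2 (0.92), GPC4 (0.92) and KCNK12 (0.91), and HESX1 ranked 17 (0.80). Closest to HESX1 were FRAT2 (0.90), H2AC25 (0.87) and SMG5 (0.87), and OTX2 ranked 19. Closest to ZIC1 were ZFHX3 (0.98), CITED2 (0.98) and IGIP (0.97), and closest to ZNF521 were KIF21B (0.98), VSIG1 (0.97) and TRO (0.97). ZIC1 and ZNF521 ran opposite to each other (r = -0.93), and r between OTX2 and ZIC1 was -0.04.

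Other genes of the pathway were counted by 1 probe set each, the one with the highest mean. For the mean inhibitor effect, 1 of 11 secreted inhibitors of WNT, BMP and Nodal passed and none of the other lists had a gene that passed, against 0.412% of all 17218 genes. It was SFRP1, a secreted WNT inhibitor, at 9.32 ± 0.82 with the inhibitor and 10.54 ± 0.41 with DMSO on feeders, and at 11.88 ± 0.27 and 12.70 ± 0.46 without feeders (SD, n = 3 each). It fell by 1.02 (adjusted p = 0.039). Among other anterior neural and eye field transcription factors 0 of 15 passed, with ZIC5 at -0.34, NKX2-1 at -0.24 and SP8 at 0.57, and the list median was -0.04 against 0.00 over all genes. GBX2, a factor of the anterior hindbrain that opposes OTX2 at the midbrain boundary, differed by 0.57 (adjusted p = 0.28).

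Between culture systems with DMSO, 7 of 15 other anterior factors rose and 3 fell, against 15.5% and 24.5% of all genes, and their median was 0.56 against -0.19 over all genes. NKX2-1 rose by 0.84 (adjusted p = 0.0066), SIX6 by 0.70 (0.020) and FEZF2 by 0.73 (0.020), while ZIC2 fell by 1.32 (0.016). SIX6 and FEZF2 lay below the array medians on all DMSO arrays of that experiment. NKX2-1 lay below them without feeders, at 5.2 to 5.5, and read 5.87 to 6.61 on feeders. Other lists were shifted the same way. Of 9 midbrain, hindbrain and caudal genes 2 rose and 0 fell, with a median of 0.53, and of 15 neural crest and non-neural ectoderm genes 5 rose and 1 fell, with a median of 0.38. Of 12 fibroblast markers 5 rose and 0 fell, with a median of 0.81. Of 13 neural progenitor genes 4 rose and 4 fell. FABP7, a fatty acid binding protein of radial glia, was at 6.44 ± 0.11 on feeders and 9.85 ± 1.44 without (SD, n = 3 each), and fell by 3.40. Among 11 secreted inhibitors 5 rose and 3 fell, among them LEFTY1, an inhibitor of Nodal, which rose by 3.42, and SFRP1, which fell by 2.17.

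In conditioned medium, SALL3 alone of 13 tested anterior factors rose in H9 cells, and SALL3 and SP8 rose while POU3F1 fell in HSF1 cells. Of all genes 2.34% rose and 9.79% fell in H9, and 6.69% rose and 7.90% fell in HSF1. SALL3, a zinc-finger factor of neural and limb development, read 10.17 ± 0.12 in conditioned and 9.37 ± 0.17 in unconditioned medium in H9, and 10.67 ± 0.05 and 9.90 ± 0.05 in HSF1 (SD, n = 3 each). It rose by 0.81 and 0.77 (adjusted p = 6.7e-05 and 5.4e-05). Of 15 neural crest and non-neural ectoderm genes 2 rose and 1 fell in H9, and 4 rose and 2 fell in HSF1. TFAP2A, a factor of neural crest and surface ectoderm, rose by 1.63 in H9 and 2.08 in HSF1. SNAI2 of the same list averaged 4.75 in conditioned and 5.56 in unconditioned medium in H9, and 4.39 and 5.37 in HSF1. Of 13 neural progenitor genes 2 rose and 3 fell in H9, and 4 rose and 3 fell in HSF1. MAP2, a microtubule protein of neurons, fell by 1.64 in H9 and 0.91 in HSF1. CDH2, the cadherin of neural cells, rose by 0.80 in HSF1. Of 8 secreted inhibitors 2 rose and 3 fell in H9, and 3 rose and 3 fell in HSF1. SFRP1 fell by 0.90 in H9 and SFRP2, another secreted WNT inhibitor, fell by 0.90 in HSF1. LEFTY1 rose by 1.74 in H9 and 1.54 in HSF1 and FST, an activin antagonist, by 0.93 in H9 and 1.27 in HSF1. The mean of 12 fibroblast markers was 6.92 to 6.98 in conditioned and 6.92 to 6.93 in unconditioned medium in H9, and 6.67 to 6.87 and 6.88 to 6.98 in HSF1.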

How the data were processed

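The files hold log2 expression values that the authors deposited, made with RMA per the submitters' processing notes. The RMA version is not given in the sources used here, nor whether all 24 arrays were summarised together. Probe sets were named through the platform annotation. 41097 of 54675 name 1 gene, 1801 several and 11777 none, and 41043 were matched to RefSeq by Entrez ID.

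Each experiment was fitted on its 12 arrays with limma 3.58.1 (lmFit, eBayes with trend) in R 4.3.3, over probe sets above 5 on at least 3 arrays, with Benjamini-Hochberg adjustment and a threshold of 0.05. The inhibitor fit has the cell line as a block, since 1 line gives 1 array in each group. Deviations of the same line correlated at 0.671 to 0.902 between inhibitor and DMSO within a culture system, but at 0.006 to 0.472 between culture systems. The line block thus does not take up the closer pairing within a culture system. The pair of line and culture system was the block in an alternative fit. Replicate numbers of the medium experiment correlated at -0.301 to 0.109 and do not pair, so that fit has no block. For the medium experiment the labels call the replicates biological and give no more. The fit was tested on simulated data with 200 changed probe sets.

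The 10 genes and all lists were chosen with earlier results of these data known. Every probe set of the 10 genes is accounted for, and up to 4 genes of each other list are named by smallest p, with list levels given as array means. Alternatives were quantile normalization, a common median, no filter, no trend, 1 or the mean of a gene's probe sets, array weights (gene by gene in the inhibitor experiment, where the default did not converge), the ACTB difference as a covariate, other blocks, and arrays left out.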

Additional observations from a re-analysis of the deposited data

Results flagged for a closer look

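The response to conditioned medium differed between H9 and HSF1 by a test of the difference itself for 5 of 18 member probe sets (27.8%), against 4.58% of all probe sets. The H9 response minus the HSF1 response was -1.43 for SIX3 242054_s_at, -0.86 for ZIC1 206373_at, -0.58 for OTX2 242128_at, -0.44 for ZNF521 226677_at and 0.94 for NES 229346_at (log2). The ACTB 3-prime minus 5-prime difference was 1.42 to 1.84 in H9 in conditioned medium and 1.07, 3.26 and 2.89 in unconditioned medium, and its part in these differences was not tested apart from the fit with it as a covariate, where 2 of the 18 member probe sets passed. SIX3 242054_s_at passed the filter on low values through HSF1 cells in conditioned medium alone, and the second OTX2 probe set, 231731_at, differed between the lines by 0.00. The second ZIC1 probe set, 234716_at, differed by -0.07 (limma, adjusted p = 0.84). With 1 array left out, the OTX2 and ZIC1 calls each ended in 8 of 12 fits, and those of ZNF521 and NES in 10 of 12.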

How the results depend on the processing

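The members' count for the inhibitor stayed at 0 in 14 alternatives for the mean of both culture systems and on feeders. Without feeders it was 2 with array weights and 1 with the pair of line and culture system as block, against 0. All of these are ZNF521 probe sets, whose DMSO arrays also entered the choice of the gene. For the difference between culture systems the count was 2 with that block, against 0. Those 2 are the OTX2 probe sets, whose inhibitor values picked the gene. Feeder-supported against feeder-free with DMSO gave 6, but 1 with quantile normalization, 2 with the mean of probe sets, 0 with the ACTB covariate, 1 with no replicate block and 0 to 2 with 1 line left out. With the inhibitor it gave 7, but 3 with 1 probe set per gene, 2 with the mean, 11 with array weights, 2 with the ACTB covariate, 3 with no replicate block and 2 to 5 with 1 line left out. Conditioned medium gave 2 in H9 (1 to 4 with 1 array left out) and 5 in HSF1 (3 with the mean, 9 with array weights, 6 with the replicate block, 4 to 6 with 1 array left out). The difference between the lines gave 5, but 3 with no filter, 3 with a common median, 3 with 1 probe set per gene, 0 with the mean, 1 with no trend, 2 with the ACTB covariate, 4 with the replicate block and 0 to 5 with 1 array left out. Counts over all probe sets moved too. Between culture systems they ran from 778 to 23411 with DMSO, against 16636, and from 2282 to 26225 with the inhibitor, against 19849. In conditioned medium they ran from 1725 to 10219 in H9, against 4038, and from 2364 to 7911 in HSF1, against 4528. For the difference between the lines they ran from 452 to 5902, against 1826. For the mean inhibitor effect they ran from 2 to 4907, against 118. 2 values reversed: ZIC1 234716_at with DMSO between culture systems stood at -0.10 with the ACTB covariate, and SOX3 1553802_a_at stood at -0.10 when both SOX3 probe sets were averaged. Of 527 values for 38 single results, 380 kept direction and side of the threshold, 143 lost the threshold and 2 gained it. The causes were not tested. Signal near background limits SOX1, LHX2, SIX3 and most PAX6 readings.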
